A study of Mus musculus with 8 samples.

Results

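The miR-26 family comprises the products of 3 hairpins that lie inside introns of the Ctdsp genes, and the members examined here were mmu-miR-26a-5p, mmu-miR-26b-5p, mmu-miR-26b-3p and mmu-miR-26a-2-3p, written below without the prefix mmu for mouse. They were taken from the table of counts by name, with earlier results of these data known. Of these 4, 3 had counts among the 422 miRNAs of the table, and miR-26a-2-3p was not analysed here. Libraries of small RNA were made from hippocampal tissue of 8 single mice, 1 for each mouse. The mice were adult males aged 12 weeks, 4 of the strain C57BL/6J (B6, the control, called WT in the labels) and 4 of the strain BTBR T+ Itpr3tf/J (BTBR, an inbred strain with autism-like behavior). Both are untreated inbred strains that differ at many places in the genome, so a difference between them cannot be assigned to a given allele. The comparison asks whether the miRNA profile of the hippocampus differs in this model.

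The Ctdsp genes encode small phosphatases that act on the C-terminal domain of RNA polymerase II and are recruited by REST, a repressor of neuronal genes in cells that are not neurons. The intronic miR-26 is made together with its host and can repress Ctdsp transcripts, a feedback loop described in neuronal differentiation. A miRNA recognizes its targets mainly through the seed, bases 2 to 8 from its 5′ end. Of the 2 arms of a hairpin, the guide arm is kept in Argonaute and the passenger arm is mostly degraded.

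The mature sequences, from RefSeq on GRCm38, show which members share a seed, here in capitals, and how the guide arms can be told apart.
miR-26a-5p: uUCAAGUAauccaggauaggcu
miR-26b-5p: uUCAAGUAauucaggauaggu
miR-26b-3p: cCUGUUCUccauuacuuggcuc
miR-26a-2-3p: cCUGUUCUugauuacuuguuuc
The guide arms miR-26a-5p and miR-26b-5p have the same seed and share their first 10 bases. Within the first 20 bases they differ only by C11U, with positions counted from the 5′ end and the base of miR-26a-5p given first. miR-26a-5p has 22 bases and miR-26b-5p has 21. Whether reads were exchanged between these near-identical sequences in mapping was not tested. The passenger arms miR-26b-3p and miR-26a-2-3p also share a seed, and their first difference is C9U, with the base of miR-26b-3p first.

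The hairpin of miR-26b lies on the plus strand at chr1:74394310-74394394 of GRCm38, in intron 4 of Ctdsp1, which has 7 exons in the transcript with the longest coding sequence. miR-26a-5p is made from 2 hairpins whose 5p arms are identical, so its counts cannot be divided between them. One lies at chr9:119031796-119031885 in intron 5 of Ctdspl, and the other at chr10:126995530-126995613 in intron 5 of Ctdsp2. In 2 of the 4 annotated transcripts of Ctdsp2 the hairpin falls within an exon, whereas no transcript of Ctdsp1 or Ctdspl has it in an exon. The 3 hairpins are on the plus strand, and no gene is annotated on the opposite strand there.

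The authors' table gives, without normalization, the number of reads counted on each miRNA. Libraries held between 2247482 and 7904990 counts, with BTBR replicate 2 the shallowest. Levels are given as CPM, the counts scaled to the same library total, after TMM normalization, which adjusts each total so that most miRNAs keep the same level. Neuronal miRNAs (4 of 4 markers counted, miR-124-3p, miR-9-5p, miR-128-3p and miR-138-5p) summed to between 48542 and 77485 CPM in B6 and between 57022 and 67057 CPM in BTBR. The liver miRNA miR-122-5p had at most 22.4 CPM. Choroid plexus miRNAs (4 of 4 counted) ranged from 4199 to 30086 CPM in B6 and from 2753 to 7777 CPM in BTBR. Red blood cell miRNAs (4 of 4) ranged from 303 to 853 CPM and from 531 to 1371 CPM, and 1 of them passed the threshold described below. Immune cell miRNAs (3 of 4) ranged from 128 to 175 CPM and from 128 to 218 CPM. Endothelial miRNAs (2 of 2) ranged from 2719 to 3365 CPM and from 1740 to 3182 CPM. The sums of these lists overlapped between strains, and their part in the results was not tested. In bulk tissue, fewer cells of a type and less RNA per cell cannot be told apart.

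miR-26a-5p was among the most abundant miRNAs of the hippocampus, at rank 3 to 5 in the 8 libraries. It took 7.57%, 10.3%, 7.20% and 8.93% of the counts in B6 replicates 1 to 4, and 8.28%, 6.15%, 9.22% and 8.57% in BTBR replicates 1 to 4. BTBR replicate 2 had the lowest share and B6 replicate 2 the highest, and the strains overlapped. By mean CPM, let-7c-5p, let-7a-5p and let-7f-5p, all members of the let-7 family that promotes differentiation, stood above it. let-7f-5p was above miR-26a-5p in 7 of 8 libraries, by 0.34 ± 0.33 on the log2 scale (SD, n = 8), so their order was not the same in every library. miR-181a-5p, next below, was lower in all 8 libraries, by 0.65 ± 0.28 on the log2 scale, and was followed by let-7b-5p and the neuronal miR-9-5p.

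miR-26b-5p, from the single Ctdsp1 locus, was less abundant, at rank 16 to 21 of 422. Its shares in B6 replicates 1 to 4 were 0.727%, 0.938%, 0.682% and 0.839%, and in BTBR replicates 1 to 4 they were 0.737%, 0.603%, 0.854% and 0.816%. Again BTBR replicate 2 was lowest and B6 replicate 2 highest. miR-16-5p, next below in mean CPM, was higher than miR-26b-5p in 4 of 8 libraries, with a log2 difference of −0.018 ± 0.20 (SD, n = 8), and these were not distinguishable. miR-7b-5p, miR-125a-5p and miR-204-5p stood just above by mean, and of these miR-204-5p, a choroid plexus miRNA, ranged from 2650 to 26966 CPM. miR-143-3p and miR-103-3p followed below, at 6829 ± 1492 and 5521 ± 902 CPM (SD, n = 8).

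When miRNAs were grouped by seed, the pair with seed UCAAGUA was the second largest group in every one of the 8 libraries. Mature sequences were matched for 367 of the 422 miRNAs, which carried 95.8% to 97.6% of the counts and fell into 292 seed groups. The let-7 seed GAGGUAG, with 11 miRNAs, held 55.0% of the counts on average. miR-26a-5p and miR-26b-5p together held 9.05% on average, with a lowest share of 6.76% and a highest of 11.2%. The miR-181 seed ACAUUCA, with 4 miRNAs, came next at 6.44%. The 95% Wilson interval of the lowest miR-26 share was 6.72% to 6.79%, and such intervals cover counting error only. The spread between mice was therefore much wider than the counting error.

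The summed share of the counts overlapped between strains, and its difference depended on the denominator. The share was 9.29% ± 1.52 (SD, n = 4) in B6 and 8.81% ± 1.44 in BTBR, a difference of −0.49 percentage points with a standard error of 1.05 (two-sided exact permutation test over 70 assignments of mice, p = 0.629). The 3 tests of shares and ratios had the same adjusted p of 0.914 by Benjamini-Hochberg. Without B6 replicate 2 or BTBR replicate 2 the difference turned to 0.16 and 0.20 percentage points. As a share of the counts not on let-7 or miR-98 the difference was −1.92 percentage points (exact permutation test, p = 0.257). As TMM-normalized CPM, expressed as a percent, it was −1.44 with no overlap (exact permutation test, p = 0.0286).

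**Figure D1:**
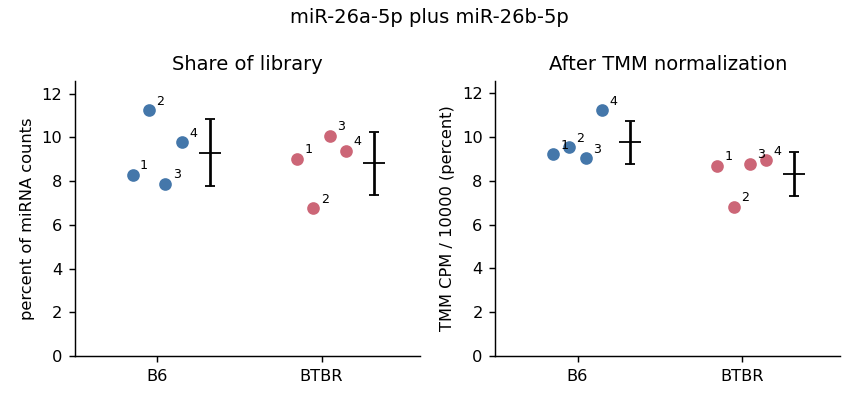
Summed miR-26a-5p and miR-26b-5p in each mouse, numbered by replicate, as percent of miRNA counts (left) and as TMM-normalized CPM expressed as a percent (right), with mean and SD as bars. The strains overlap on the left, and on the right each BTBR mouse lies below each B6 mouse.

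After TMM normalization, miR-26a-5p had 84147, 87444, 82401 and 102458 CPM in B6 replicates 1 to 4. In BTBR replicates 1 to 4 it had 79841, 62068, 80374 and 81519.5 CPM. Each BTBR mouse was below each B6 mouse, but the gap between the nearest mice was small, and BTBR replicate 2 and B6 replicate 4 stood out from the others of their strain. The means were 89113 ± 9139 CPM for B6 (SD, n = 4) and 75951 ± 9281 CPM for BTBR. The log2 fold change, BTBR over B6, was −0.23 with a standard error of 0.16 (95% interval −0.59 to 0.13), and it did not pass the study's threshold of 0.1 (adjusted p = 0.655 by Benjamini-Hochberg over 422 miRNAs, quasi-likelihood test of edgeR). As a fold, the interval ran from 0.665 to 1.09.

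miR-26b-5p followed the same course. It had 8079, 7969, 7811 and 9630.0 CPM in B6 replicates 1 to 4 and 7109, 6088, 7445 and 7761 CPM in BTBR replicates 1 to 4. The lowest B6 mouse was again just above the highest BTBR mouse. The means were 8372 ± 846 CPM (SD, n = 4) and 7101 ± 725 CPM, and BTBR over B6 came to −0.24 on the log2 scale (95% interval −0.60 to 0.12, standard error 0.16, adjusted p = 0.651 from the same edgeR test). Only 2 of 422 miRNAs had a smaller standard error than miR-26a-5p, against a median of 0.325 on the log2 scale, and 3 had a smaller one than miR-26b-5p.

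**Figure D2:**
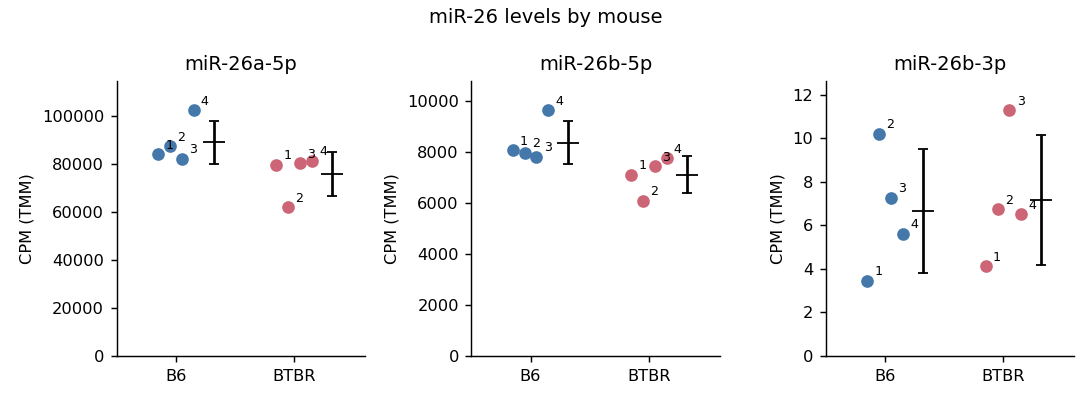
TMM-normalized CPM of miR-26a-5p, miR-26b-5p and miR-26b-3p in each mouse, numbered by replicate, with the mean and SD of each strain (n = 4) as bars. Both guide arms are slightly lower in BTBR, with BTBR replicate 2 lowest at 62068 and 6088 CPM, whereas the passenger arm spreads over the same range in both strains.

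Among all miRNAs, 7 of 422 (1.66%) passed the threshold, 5 higher and 2 lower in BTBR, and 0 of the 3 measured miR-26 members were among them. At an unadjusted p under 0.05 there were 46 miRNAs and also 0 miR-26 members, and no miR-26 member passed with DESeq2, limma-voom or edgeR's exact test, which called 21, 6 and 16 of the 422. The strains did not overlap in 28 miRNAs (6.64%), 14 of them lower in BTBR (3.32%), and both guide arms were in this last group (two-sided exact permutation test of log2(CPM + 0.5), p = 0.0286 for each, the smallest value that 4 against 4 mice allow). As these guide arms vary together, they are not separate evidence.

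That separation depended on the scaling. DESeq2 size factors kept the exact p of 0.0286 for both guide arms, with log2 differences of −0.23 and −0.24. With library size only, the exact test gave p = 0.657 for miR-26a-5p and p = 0.629 for miR-26b-5p, and with upper quartile scaling p = 0.371 and p = 0.286. TMM factors lay between 0.872 and 1.18 in B6 and between 0.991 and 1.15 in BTBR, and B6 replicate 2 had the largest. Scaling by library size only moved the median log2 fold change of all miRNAs from 0.017 to 0.15, and the log2 fold change of miR-26a-5p from −0.23 to −0.077. Relative to the median of all miRNAs, miR-26a-5p lay at −0.25 with TMM, −0.24 with DESeq2 size factors, −0.25 with upper quartile and −0.22 with library size only. With 1 mouse left out, the log2 difference lay between −0.27 and −0.14 for miR-26a-5p and between −0.28 and −0.17 for miR-26b-5p. The exact p of miR-26a-5p stayed at 0.0286, which is also the smallest that 3 against 4 mice gave, except that it was 0.0571 without B6 replicate 2 (difference −0.24), 0.143 without B6 replicate 4 (−0.17) and 0.114 without BTBR replicate 2 (−0.14). For miR-26b-5p it was 0.0571 without B6 replicate 1, 2 or 3 (differences of −0.25, −0.26 and −0.27) or BTBR replicate 2 (−0.17), and 0.0857 without B6 replicate 4 (−0.17).

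**Figure D3:**
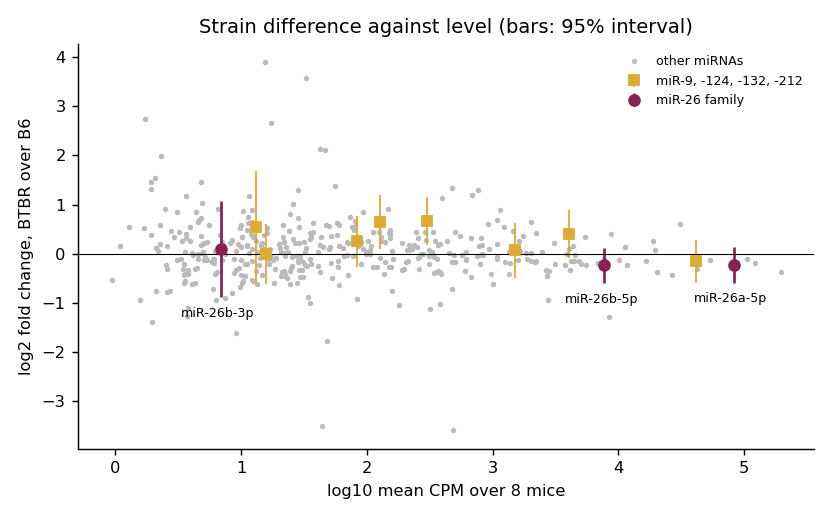
Log2 fold change (BTBR over B6, edgeR) of 422 miRNAs against log10 mean CPM, with 95% intervals for the miR-26 family (circles) and for the REST-linked miRNAs (squares). The intervals of the 3 miR-26 members include 0, and those of miR-212-3p and miR-212-5p lie above it without passing after adjustment.

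The ratio of the guide arms was nearly constant from mouse to mouse. There were 10.4, 11.0, 10.5 and 10.6 counts of miR-26a-5p for each count of miR-26b-5p in B6 replicates 1 to 4, and 11.2, 10.2, 10.8 and 10.5 in BTBR replicates 1 to 4. BTBR replicates held both the highest and the lowest value, and the strains overlapped. The mean ratio was 10.6 ± 0.238 (SD, n = 4) in B6 and 10.7 ± 0.441 in BTBR. On the log2 scale the strains differed by 0.0044 with a standard error of 0.034 (two-sided exact permutation test, p = 0.914).

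The SD of this log2 ratio over the 8 mice was 0.044, the smallest of 83 pairs of miRNAs that share a seed and have a mean of at least 100 CPM. The median over these pairs was 0.275. miR-103-3p with miR-107-3p came next at 0.074, followed by miR-181b-5p with miR-181d-5p at 0.081. Whether reads were exchanged between the similar sequences of such pairs was not tested. Over all 13364 pairs that can be formed from the 164 miRNAs at this level, with 2 pairs of identical counts left out, the miR-26 ratio again had the smallest SD, and the next was 0.052. Among these pairs it was at rank 1 when each mouse but B6 replicate 4 was left out, and was at rank 3 without B6 replicate 4. Within B6 alone it was at rank 14 (SD 0.032) and within BTBR alone at rank 30 (SD 0.059). Counting error alone would give an SD of 0.0059 to 0.013 in single libraries, so the ratio still varied by more than counting error. Counting error is larger for less abundant miRNAs and adds to the SD of their pairs, so the ranking favors abundant miRNAs. The pairs share libraries, and this ranking of pairs was made after values were seen, so it is a description with no test.

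**Figure D4:**
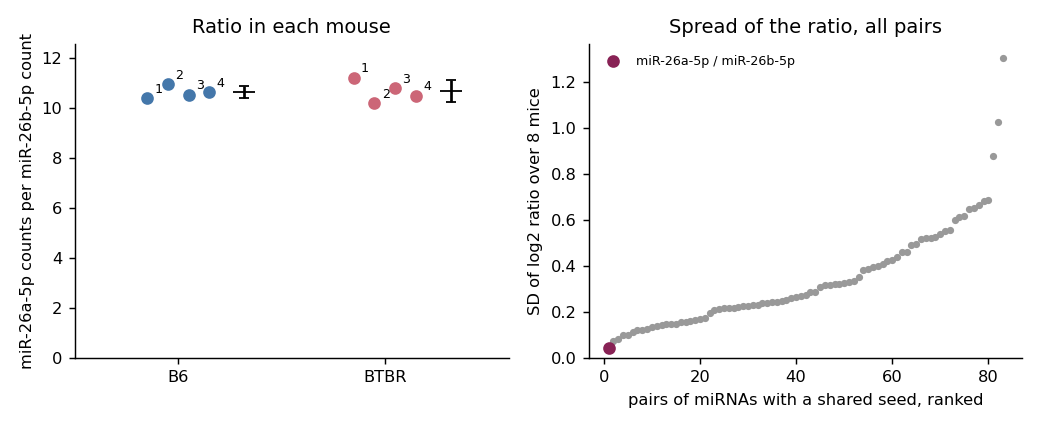
Counts of miR-26a-5p per count of miR-26b-5p in each mouse, numbered by replicate with mean and SD as bars (left), and the SD over 8 mice of the log2 ratio for 83 pairs of miRNAs with a shared seed, ranked (right). The ratio stays between 10.2 and 11.2, and its SD of 0.044 is the lowest point on the right.

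The miRNAs whose level followed miR-26a-5p most closely, after miR-26b-5p, were ranked by the same SD of the log2 ratio over 8 mice among 317 miRNAs with a mean of at least 10 CPM. miR-872-5p was closest at 0.139, followed by miR-421-3p at 0.146, miR-1194 at 0.148, miR-186-5p at 0.151 and let-7b-3p at 0.169, against a median of 0.449. Pearson's r with miR-26a-5p on log2 CPM was 0.976 for miR-26b-5p and between 0.61 and 0.914 for these 5 (across 8 libraries that share one normalization, given as a description). Counting error adds more to the SD of less abundant miRNAs in this ranking as well.

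The passenger arm miR-26b-3p was rare, with 18, 61, 36 and 25 reads in B6 replicates 1 to 4 and 20, 15, 45 and 54 reads in BTBR replicates 1 to 4. In CPM these were 3.45, 10.2, 7.27 and 5.62 in B6 and 4.11, 6.73, 11.3 and 6.50 in BTBR. Both strains covered nearly the same range, with B6 replicate 2 and BTBR replicate 3 highest. The means were 6.64 ± 2.85 CPM (SD, n = 4) and 7.15 ± 2.99 CPM, and BTBR over B6 was 0.10 on the log2 scale (95% interval −0.88 to 1.08, standard error 0.45, adjusted p = 0.957, quasi-likelihood test of edgeR). As a fold, the interval ran from 0.544 to 2.11, the CV between mice was 42.9% in B6 and 41.8% in BTBR, and the sign turned without B6 replicate 1, B6 replicate 4 or BTBR replicate 3.

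Of the reads on the miR-26b hairpin, miR-26b-3p made up 0.427, 1.28, 0.929 and 0.583 per 1000 in B6 replicates 1 to 4 and 0.578, 1.10, 1.51 and 0.836 per 1000 in BTBR replicates 1 to 4. B6 replicate 1, the lowest, had an exact 95% interval of 0.253 to 0.675 per 1000 and BTBR replicate 3, the highest, one of 1.10 to 2.02 per 1000, and the strains overlapped. The log2 ratio of miR-26b-5p to miR-26b-3p was 10.38 ± 0.69 (SD, n = 4) in B6 and 10.01 ± 0.59 in BTBR, a difference of −0.37 with a standard error of 0.45 (two-sided exact permutation test, p = 0.457). It was −0.11 without B6 replicate 1, −0.14 without BTBR replicate 3, −0.63 without B6 replicate 2 and −0.60 without BTBR replicate 1.

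Among the 99 hairpins whose arms carry the same name in the table, miR-26b was at rank 6 in its 5p to 3p ratio, with a mean log2 ratio of 10.20 ± 0.62 (SD, n = 8). Families whose 3p arms are named by locus, such as let-7c and let-7f, are not among the 99. Hairpins with a single counted arm are also left out, so the rank holds only among these 99. let-7i, miR-9 and miR-30b stood just above, at 11.42, 11.36 and 10.30, and miR-191, let-7e and miR-125a just below, the last of them at 9.05. The median size of the log2 ratio over the 99 hairpins was 3.65, and the 5p arm was the larger in 51 of them. The SD of the miR-26b ratio was close to the median SD of 0.62. The strains did not overlap in 2 of the 99 ratios (2.02%), and miR-26b was not one of these.

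**Figure D5:**
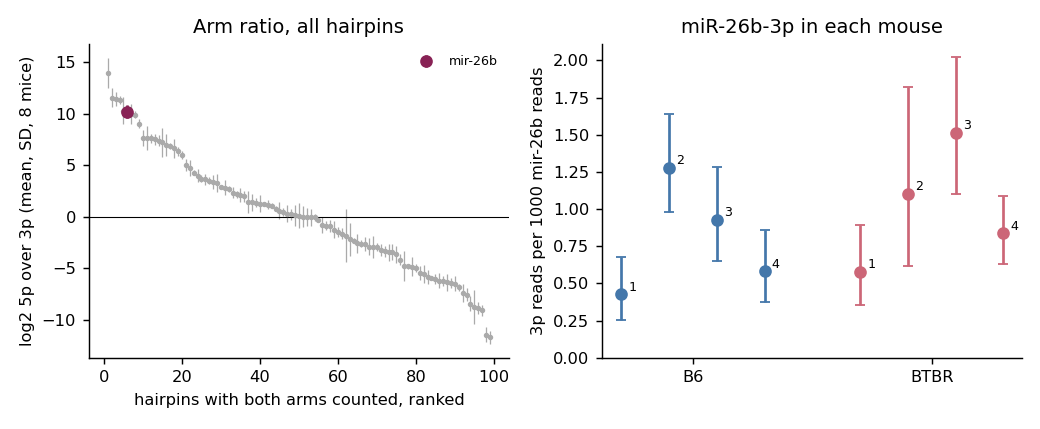
Mean log2 ratio of 5p to 3p counts with SD over 8 mice for 99 hairpins, ranked (left), and miR-26b-3p reads per 1000 reads on miR-26b in each mouse with exact 95% intervals (right). miR-26b lies at rank 6 from the top at 10.20, and the intervals of the strains overlap.

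REST, the repressor that recruits Ctdsp phosphatases, is known to silence the genes of the neuronal miRNAs miR-9, miR-124, miR-132 and miR-212, which were taken as the neighboring part of the pathway. All 8 arms were counted, and 0 of 8 passed the threshold in either direction in the quasi-likelihood test of edgeR or any of the 17 alternatives, against 7 of all 422 miRNAs (1.66%) in that test and 3 to 21 in the alternatives. The median log2 fold change of these 8 was 0.32, against 0.017 for all miRNAs, and 6 were above 0, as were 215 of all 422. miR-124-3p and miR-9-5p are also among the neuronal markers above. Unadjusted, 2 of the 8 had a p under 0.05 in the edgeR test, against 10.9% of all miRNAs. miR-212-5p, from the activity-regulated miR-132/212 cluster, had between 227 and 238 CPM in B6 and 286, 496, 404 and 288 CPM in BTBR replicates 1 to 4. The strains did not overlap, and on the log2 scale BTBR was higher by 0.66 ± 0.22 (standard error), which did not pass (adjusted p = 0.254, quasi-likelihood test of edgeR). The opposite arm, miR-212-3p, differed by 0.65 on this scale (standard error 0.25, adjusted p = 0.345 from edgeR), and BTBR replicate 4 lay within the B6 range. Those of miR-132-3p and miR-132-5p were 0.39 and 0.53, with standard errors of 0.22 and 0.52. miR-124-3p, the most neuron-specific of the list, had a log2 fold change of 0.06 (95% interval −0.49 to 0.62) and miR-124-5p of 0.25 (−0.28 to 0.77). miR-9-5p and miR-9-3p were at −0.16 and −0.01, with intervals of −0.60 to 0.29 and −0.62 to 0.60.

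To show where the shared seed could pair in this circuit, 3′UTRs of GENCODE transcripts on GRCm38 (the transcript with the longest coding sequence of each gene) were searched on the transcript strand for TACTTGAA, and apart from it for TACTTGA and ACTTGAA. Of all 20673 3′UTRs, with a median length of 797 nt, 16.7% held a match and 3.84% the 8-base form. Beside each gene stands the share among UTRs of like length, 0.8 to 1.25 times its own. Matches are in capitals, the coordinates cover the capitals, and a match says nothing about binding.
Rest, chr5:77283333-77283340: ttggcttagtaaatTACTTGAAg
Ctdsp2, chr10:126997566-126997572: ccaagtgttgctctTACTTGAt
Ctdspl2, chr2:122012743-122012749: aattgttgacaatgTACTTGAt
Ezh2, chr6:47530286-47530293: atttgaataaagaaTACTTGAAc
These sites lie on the plus strand except that of Ezh2, on the minus strand. The 3′UTR of Rest (3448 nt) had the 8-base form 349 nt after the stop codon and ACTTGAA at nt 2525, where 40.5% of UTRs of like length held any match and 10.6% the 8-base form. Of the host genes, Ctdsp2 (3483 nt) had 2 matches of 7 bases, at nt 1080 and 3395, and 40.6% of UTRs of like length held any match. Ctdsp1 (1701 nt) and Ctdspl (3349 nt), the other hosts, had 0 matches in these windows, where 23.1% and 39.8% of like UTRs held one. Ctdspl2, a relative that hosts no miR-26, had 1 match in 3014 nt, where 37.2% of like UTRs held one. Ezh2, a histone methyltransferase, had the 8-base form in a 3′UTR of only 402 nt, where 6.20% of like UTRs held any match and 1.32% the 8-base form. Transcript levels of these genes were not analysed here.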

How the data were processed

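Small RNA libraries from the hippocampus of single mice (4 B6, 4 BTBR) were grouped by their titles, and table columns were mapped by library name. The authors trimmed adapters, checked reads with FastQC (0.11.2 in the submitters' processing notes), mapped them to GRCm38, the genome of B6, with sRNAbench and Bowtie, assigned reads within miRBase annotations, and deposited whole-number counts per miRNA without normalization. All 422 miRNAs were kept. Counts carry no molecular identifiers. Totals per library ranged from 2247482 to 7904990.

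Counts were normalized by TMM and compared with edgeR 4.0.16 (quasi-likelihood test, common dispersion 0.137, Benjamini-Hochberg over 422 miRNAs, threshold 0.1) in R 4.3.3. Standard errors come from each estimate and its F statistic. Shares, ratios and log2(CPM + 0.5) of single miRNAs were compared by two-sided exact permutation tests over mice, and ratios used counts + 0.5. Wilson and exact intervals were computed with scipy 1.17.1. The quasi-likelihood test of edgeR, and no other step, was also run on simulated counts. Alternatives used DESeq2 1.42.0, limma 3.58.1, other scalings, filterByExpr, robust fits, a replicate block and each mouse left out.

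The members and lists were chosen with earlier results of these data known. Besides the members and lists, miRNAs are named by rank: 3 above and below each guide arm in CPM, the 5 closest in ratio to miR-26a-5p, 3 above and below in arm ratio, and the 3 largest seed groups. The pairs beside miR-26 in the ranking of seed-sharing pairs, and the scalings of the exact tests, were chosen after values were seen. Library pairs of 1 strain differed by more than sampling noise. One gene of the search for seed matches is not reported here.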

Additional observations from a re-analysis of the deposited data

Results flagged for a closer look

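Within groups of 4 mice, the gap of the highest or lowest mouse to its neighbor was compared with the range of the group by Dixon's test, in 28 groups (3 miR-26 levels, 3 shares and ratios, and 8 REST-linked levels in each strain). Chance flags about 1 in 20 groups, and 2 were found. miR-26a-5p in BTBR replicate 2, the shallowest library, was far below the other BTBR mice at 62068 CPM, and without it the log2 fold change of miR-26a-5p was −0.18. miR-26b-5p in B6 replicate 4 was far above the other B6 mice at 9630.0 CPM, and without it the log2 fold change of miR-26b-5p was −0.20.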

How the results depend on the processing

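miR-26a-5p and miR-26b-5p stayed lower in BTBR and short of the threshold under all 17 alternatives of the edgeR test, with log2 fold changes of −0.32 to −0.077 and −0.34 to −0.082 and adjusted p of at least 0.539 and 0.510. Their exact tests at p = 0.0286 were kept with DESeq2 size factors (−0.23 and −0.24) and lost with library size only (log2 differences of −0.079 and −0.083) and upper quartile (−0.18 and −0.19), and with each mouse left out the differences ranged from −0.27 to −0.14 and from −0.28 to −0.17. As TMM CPM instead of a share, the sum of both was 1.44 percentage points lower in BTBR (a difference of −1.44, exact permutation test, p = 0.0286), as a share of counts not on let-7 or miR-98 the difference was −1.92 points (p = 0.257, exact), and with mice left out the share differed by −0.96 to 0.20 points. Leaving mice out moved miR-26b-3p from −0.21 to 0.42 in edgeR and from −0.14 to 0.34 in the exact test, and the log2 ratio of miR-26a-5p to miR-26b-5p from −0.020 to 0.026 and that of miR-26b-5p to miR-26b-3p from −0.63 to −0.11. The count of miRNAs past the threshold, 7, was 4 with library size only, 21 with the DESeq2 Wald test, 16 with edgeR's exact test, 4 at an adjusted p under 0.05, 3 with the replicate block, and 3 to 13 with each mouse left out (13 without B6 replicate 2, 3 without BTBR replicate 3 or 4, 4 without BTBR replicate 1). The cause was not tested. The replicate block moved miR-26a-5p to −0.23 (adjusted p = 0.783, edgeR), and mice of the same number did not deviate together (correlations of −0.15 to 0.05 across miRNAs). The labels do not say whether the numbers pair mice, and these few correlations cannot settle it. miR-26b-3p rests on 15 to 61 reads per library.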
